A study of Mus musculus with 13 samples.

Results

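The small RNA table of mouse HOXB8 cells and neutrophils lists 18385 unique sequences, of which 9798 are annotated as ribosomal RNA (rRNA). Of these, 7013 are placed on the record of the 45S precursor and 2785 on 88 other rRNA records. The 2785 were chosen by their annotation alone, as rows of the class rRNA whose record is not the 45S record, and they are described here. Each row is 1 sequence with its length, its place on a record and its level in 9 libraries. Levels are RPM, reads of that sequence per 1000000 reads of the library.

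Each of the 9 groups had 1 library of mouse RNA. HOXB8 cells, a myeloid progenitor line, were grown with 1 µM β-estradiol and 100 ng/ml SCF and stood in the labels as undifferentiated. Differentiated HOXB8 cells were the same line in the same medium without β-estradiol. The protocol gives 36 h with 100 µM Ac4ManNAz, which cells turn into azide-bearing sialic acid, next to 100 µM GalNAc and 10 µM Gal. The protocol text stands in every label and does not say whether the neutrophils were labelled too. Neutrophils were taken fresh from the bone marrow of wildtype mice, and neither the strain, the age nor the number of animals is given. RNA was sequenced as an input cut from a gel below 300 nt, after capture of clicked biotin on streptavidin beads (biotin), or after capture on wheat germ agglutinin beads (WGA). One biotin sample was further treated with PNGase F, which cuts N-glycans off. Inputs and WGA libraries exist for HOXB8 cells, differentiated HOXB8 cells and neutrophils. Biotin libraries exist for both states of the HOXB8 line, and the PNGase F library for the differentiated state. The size cut is given for the inputs alone, so that capture and size selection cannot be told apart in a ratio to input.

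The ribosome holds 18S rRNA in its small subunit and 28S, 5.8S and 5S rRNA in its large subunit. The first 3 are cut out of the 45S precursor, while 5S rRNA is made from separate genes by RNA polymerase III, which ends its transcripts in a run of U. Fragments of rRNA make up much of most small RNA libraries. They arise in the cell as rRNA is turned over and also when RNA breaks during handling. Studies of glycoRNA, small RNA reported to carry sialylated glycans on the cell surface, start from libraries of this kind.

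The 88 records fell into 3 families. In 42 records the members lay within the length of 5S rRNA plus a lead of 50 bases and shared no stretch of 14 bases with 45S sequences. These 5S-length records held 599 sequences. In 39 records at least 1 member shared such a stretch, and of their 2175 sequences 1005 (46.2%) matched exactly the stretch that sequences placed on the 45S record cover. The central 95% of those matches lay between positions 4080 and 5618 of the 45S record, within the part that holds 18S rRNA by general knowledge. These records are called 18S-like. The full range of matches ran from 656 to 6908, so that some lie outside that part. A record joined this family through 1 member or more, so that the name need not hold for each of its members. The same 18S sequence is therefore split between the 45S record and the 18S-like records by the authors' annotation, and near-identical copies are split between records. The level of a single record is for that reason uncertain. The last 7 records held 11 sequences in neither family. The families were set after the values had been seen. Positions on 5S rRNA below are record positions less the lead. Numbering differs between records: of 318 sequences with the shared end TGGGAGACCGCC, 247 end at 95, 67 at 94 and 4 at lower numbers, so that sums by position miss or mix some identical ends. Of 69 RefSeq n-R5s genes (5S genes, GRCm38.p6), 26 are 121 bases long and 42 are 119.

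The sequences on which the results turn are given first, 5′ to 3′, with the last 12 bases in capitals. They show that many members share a 3′ end and differ in where they start. The first set is from 5S rRNA, with the first and last position in its name.
5S 62 to 95: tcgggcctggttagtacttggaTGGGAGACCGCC
5S 67 to 95: cctggttagtacttggaTGGGAGACCGCC
5S 72 to 95: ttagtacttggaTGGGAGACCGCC
5S 74 to 95: agtacttggaTGGGAGACCGCC
5S 78 to 95: cttggaTGGGAGACCGCC
5S 90 to 120: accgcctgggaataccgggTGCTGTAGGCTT

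The second set is 18S-like. The first 4 end at position 4873 of the 45S record, the next pair at position 4564. The 101-base sequence and the 16-base sequence after it carry the known first and last bases of 18S rRNA. The closing pair was high after capture from the HOXB8 line and low in neutrophils.
18S-like, 32 bases: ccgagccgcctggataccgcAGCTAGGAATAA
18S-like, 31 bases: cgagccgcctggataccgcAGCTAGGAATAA
18S-like, 29 bases: agccgcctggataccgcAGCTAGGAATAA
18S-like, 22 bases: tggataccgcAGCTAGGAATAA
18S-like, 18 bases: ctttcgAGGCCCTGTAAT
18S-like, 42 bases: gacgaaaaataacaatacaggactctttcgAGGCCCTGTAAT
18S-like, 101 bases: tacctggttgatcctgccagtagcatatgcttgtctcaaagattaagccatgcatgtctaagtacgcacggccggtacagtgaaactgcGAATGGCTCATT
18S-like, 16 bases: tgcgGAAGGATCATTA
18S-like, 33 bases: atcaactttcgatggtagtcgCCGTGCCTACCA
18S-like, 28 bases: acagattgatagctctTTCTCGATTCCG

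The 9 libraries held between 3110323 and 9922659 reads, of which between 39.3% (HOXB8 input) and 96.7% (differentiated HOXB8 WGA) were in the table. One read was worth between 0.101 and 0.322 RPM. The table is titled as one without miRNA and so may hold a part of the miRNA reads alone. Sequences of miR-223, a marker of neutrophils and their precursors, stood at 5.07 RPM in the HOXB8 input, 527.6 in the differentiated input and 4381 in the neutrophil input, and those of miR-142, a marker of blood cells, stood at 11.5, 96.6 and 616 RPM. After WGA capture from neutrophils each stood at 0.202 RPM. Sequences of miR-1, miR-133 and miR-205, markers of muscle and epithelium, were at 0 rows. The reference held no miR-122 or miR-124 sequence to search for. For miR-200, another epithelial marker, 1 row was found, at 9.67 RPM or less. With 1 library a group, intervals below are exact 95% intervals of counting error alone, since no molecular identifiers were read, reads do not count independent molecules.

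The summed rRNA fragments outside the 45S record were lower after capture than in the input in both states of the HOXB8 line, and higher after WGA capture in neutrophils. In HOXB8 cells their sum was 82350 RPM in the input, against 30442 after biotin and 41507 after WGA. In differentiated HOXB8 cells the sum was 201261 RPM in the input, 43263 after biotin, 46358 after WGA and 42452 after PNGase F. In neutrophils they stood at 116056 RPM in the input and 403737 after WGA, which is 40.4% of that library. WGA was 1.98-fold lower than input in HOXB8 cells (1.97 to 1.99), 4.34-fold lower in differentiated cells (4.32 to 4.36) and 3.48-fold higher in neutrophils (3.47 to 3.49).

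**Figure D1:**
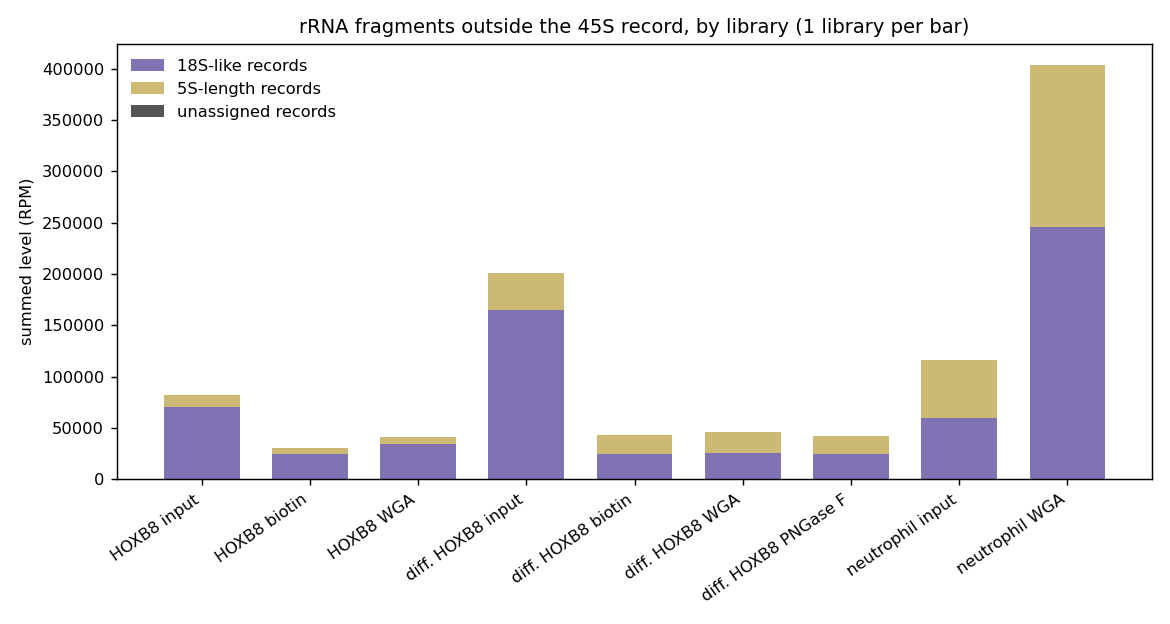
Bars show the summed level in RPM of rRNA fragments outside the 45S record in each of the 9 libraries, split by family, with 1 library per bar. The neutrophil WGA library stands highest, at 403737 RPM, and the HOXB8 biotin library lowest, at 30442 RPM.

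Both families shared this pattern. Below, HOXB8 values are given in the order input, biotin, WGA and differentiated values in the order input, biotin, WGA, PNGase F. 5S-length fragments summed to 11897, 6124 and 7581 RPM in HOXB8 cells, and to 36826, 18648, 20350 and 17694 RPM in differentiated cells. They stood at 56194 RPM in the neutrophil input and 157891 RPM after WGA. 18S-like fragments stood at 70409, 24288 and 33835 RPM in the 3 HOXB8 libraries. In the differentiated libraries they stood at 164349, 24600, 25974 and 24747 RPM, and in neutrophils at 59804 RPM in the input and 245764 RPM after WGA. The input of differentiated cells was thus highest among inputs for 18S-like fragments, and the neutrophil input for 5S-length fragments.

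The log2 ratio of WGA to input over all these fragments was -0.99 in HOXB8 cells, -2.12 in differentiated cells and 1.80 in neutrophils, a mean of -0.44 ± 2.02 (SD, n = 3 kinds of cell; exact two-sided sign-flip permutation test, p = 0.75). For 5S-length fragments it was -0.65, -0.86 and 1.49, and for 18S-like fragments -1.06, -2.66 and 2.04 (the same exact permutation test, p = 1 and p = 0.75). With 3 ratios the test cannot give a p under 0.25. The neutrophil value rests on few sequences. Without the 10 highest sequences of each library it was -0.50, and without the highest sequence of each record -0.20. Under the latter setting the HOXB8 value was 0.10.

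Sequences placed on the 45S record went the other way. They stood at 124332 RPM in the input and 424443 after WGA in HOXB8 cells, at 269021 and 499132 in differentiated cells, and at 558403 and 316956 in neutrophils. The log2 ratio outside the 45S record less that on it was -2.76 in HOXB8 cells, -3.01 in differentiated cells and 2.62 in neutrophils (mean -1.05; exact two-sided sign-flip permutation test, p = 0.5). The 3 differences had 2 signs. The mean was -1.63 among sequences of 20 or more bases and -0.16 with the 10 highest sequences of every library left out.

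Fragment length separated inputs from captured libraries in the HOXB8 line, while neutrophils differed. Of 18S-like RPM, 48.3%, 58.0% and 52.7% lay at 30 to 39 bases in the HOXB8, differentiated and neutrophil inputs. In the HOXB8 biotin and WGA libraries that share was 6.51% and 6.57%, and under 20 bases lay 57.8% and 59.6%, against 23.6% in the input. In the differentiated biotin, WGA and PNGase F libraries 9.68%, 10.7% and 9.22% lay at 30 to 39 bases and 42.1%, 42.9% and 43.4% under 20. The neutrophil WGA library kept 45.3% at 30 to 39 bases and held 5.54% under 20 bases, against 19.5% in its input.

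For 5S-length fragments the inputs held 38.3%, 43.2% and 55.6% at 30 to 39 bases, in the order HOXB8, differentiated and neutrophil. At that length the 5 captured libraries of the HOXB8 line held between 1.62% and 2.52%, and most of their 5S RPM lay at 20 to 29 bases in HOXB8 biotin (54.3%), HOXB8 WGA (56.9%) and differentiated WGA (62.8%). At 40 or more bases lay 36.8% in differentiated biotin and 33.7% after PNGase F, against 7.50% in the input and 7.07% after WGA. In neutrophils 98.4% lay there after WGA, against 12.3% in the input. Among sequences under 40 bases, an alternative added after seeing the data, the log2 WGA to input ratio of 5S-length fragments in neutrophils was -4.28 in place of 1.49, and without the highest sequence of each record it was -1.07. Whether size selection of the inputs has a part in these differences was not tested.

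**Figure D2:**
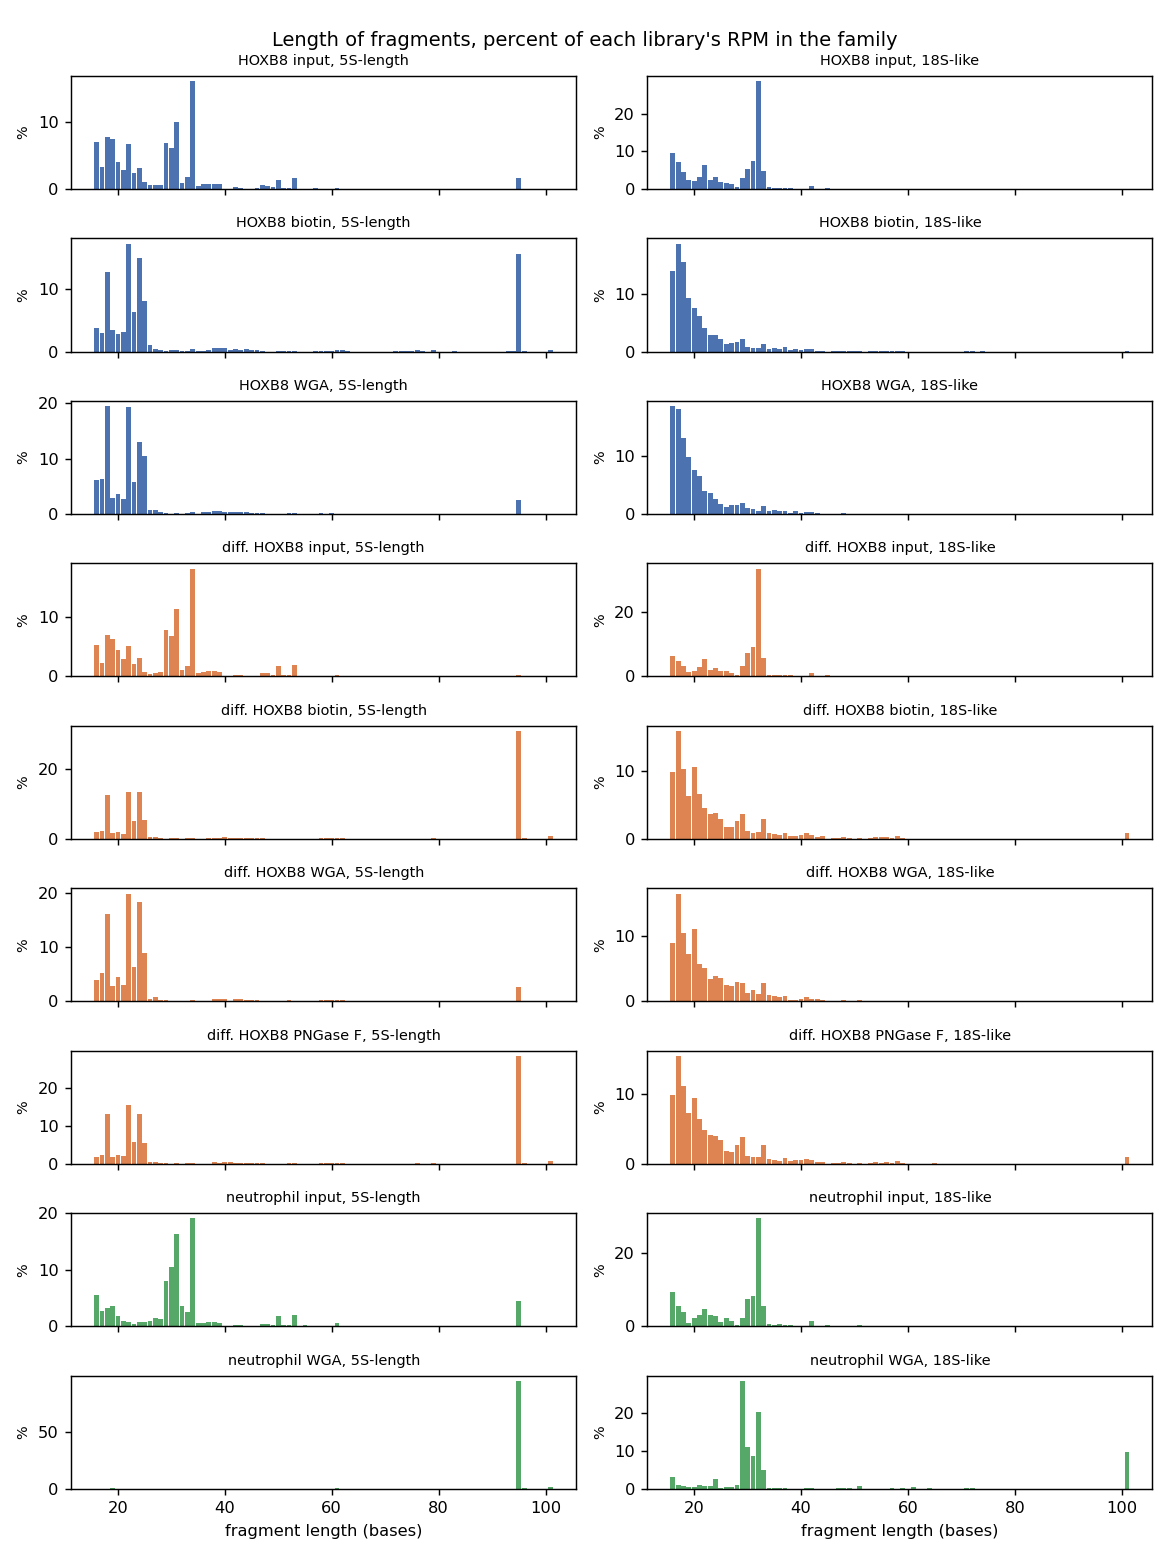
Each panel gives, for 1 library and 1 family, the percent of the family's RPM (vertical axis, linear, scaled to each panel) at each fragment length in bases (horizontal axis). Inputs peak between 30 and 39 bases and the captured libraries of the HOXB8 line below 30, except for 5S-length fragments after biotin and PNGase F in differentiated cells, which peak above 40 and hold 36.8% and 33.7% there. The neutrophil WGA library has 98.4% of its 5S-length RPM at 40 or more bases.

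Among 5S fragments, 318 sequences on 19 records ended in TGGGAGACCGCC. Those under 40 bases divided into those that were nearly lost after capture and those that were not. The 34-base fragment 62 to 95, the highest 5S member of each input, stood at 1797, 6454 and 10213 RPM in the HOXB8, differentiated and neutrophil inputs and at 11.6, 49.4 and 61.3 RPM after WGA. It was 155-fold lower in HOXB8 cells (121 to 202), 131-fold in differentiated cells (119 to 144) and 167-fold in neutrophils (154 to 181). After biotin it stood at 6.59 RPM in HOXB8 and 46.5 RPM in differentiated cells, and after PNGase F at 8.99 RPM. The fragment 67 to 95 stood at 763, 2739 and 3576 RPM in the inputs, and between 5.65 and 40.3 RPM in the captured libraries.

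The 3 fragments with this end of 18, 22 and 24 bases given next stood above input in the captured libraries of the HOXB8 line. Not every length near theirs did: at 19 bases the 5S-length sum was 892, 209 and 224 RPM in the HOXB8 libraries and 2314, 337, 593 and 318 RPM in the differentiated libraries, and at 20 and 21 bases it was likewise below input in each. The 22-base fragment 74 to 95 stood at 431, 890 and 1302 RPM in the HOXB8 libraries. Its differentiated levels were 929, 2264, 3889 and 2435 RPM, and neutrophils had 149 RPM in the input and 114 after WGA. WGA was 3.02-fold above input in HOXB8 cells (2.86 to 3.19) and 4.19-fold in differentiated cells (4.05 to 4.34), while in neutrophils the ratio was 0.765 (0.686 to 0.855). The 24-base fragment 72 to 95 stood at 184, 771 and 837 RPM in the HOXB8 libraries, at 543, 2238, 3542 and 2079 RPM in the differentiated libraries, and at 129 and 127 RPM in the neutrophil pair. The 18-base fragment 78 to 95 stood at 593, 698 and 1382 RPM in the HOXB8 libraries. Its differentiated levels were 1727, 2203, 3160 and 2187 RPM, and it stood at 646 RPM in the neutrophil input and 154 RPM after WGA.

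Fragments that reach the 3′ end of 5S rRNA, taken by number as those ending at positions 119 to 121, were lower in each captured library than in the input. Summed over 83 sequences they stood at 1802, 729 and 872 RPM in the HOXB8 libraries and at 6914, 1254, 749 and 1347 RPM in the differentiated libraries. In neutrophils they stood at 13712 RPM in the input and 6.85 RPM after WGA, 2000.9-fold lower (1578 to 2577). No sequence of the table was longer than 101 bases, so that a read from position 1 cannot reach these positions. The fragment 90 to 120 stood at 39.2, 267 and 1799 RPM in the 3 inputs and at 2.90, 3.28 and 0.302 RPM after WGA.

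**Figure D3:**
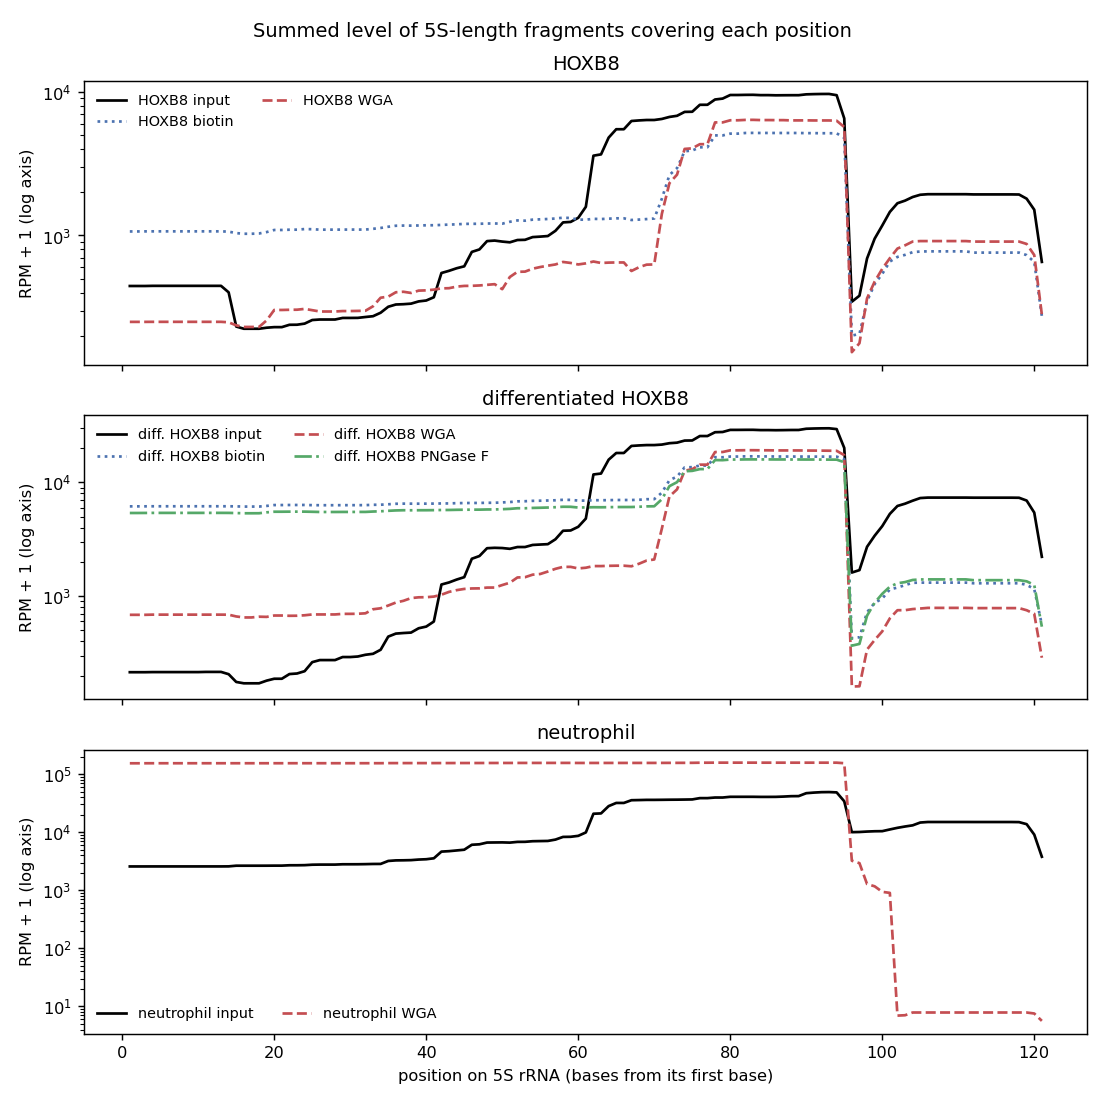
Lines give the summed RPM + 1 (log axis) of 5S-length fragments that cover each position of 5S rRNA, for each library, in a panel per kind of cell. Inputs climb from about position 41 on, fall after position 95 and rise again from position 96 to 106. The neutrophil WGA line lies far below its input at positions 119 to 121, where fragments that end there sum to 6.85 RPM.

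Among 18S-like fragments, 181 sequences ended in AGCTAGGAATAA, at lengths of 16 to 93 bases. They summed to 50528, 1732 and 2140 RPM in the HOXB8 libraries and to 129244, 3989, 4951 and 3856 RPM in the differentiated libraries. In neutrophils they summed to 41424 RPM in the input and 195608 after WGA. WGA was 23.6-fold below input in HOXB8 cells (23.2 to 24.1), 26.1-fold below in differentiated cells (25.8 to 26.4) and 4.72-fold above input in neutrophils (4.70 to 4.75). This end alone held 64.2% of all summed fragments in the differentiated input.

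The members of this group with longer and shorter starts did not keep one ratio. The 32-base fragment, the highest member in each input, stood at 19580, 53950 and 16991 RPM in the HOXB8, differentiated and neutrophil inputs, and at 79.9, 147.6 and 48396 RPM after WGA. That is 245-fold lower in HOXB8 cells (223 to 270), 366-fold lower in differentiated cells (346 to 387) and 2.85-fold higher in neutrophils (2.82 to 2.87). The 31-base fragment stood at 5000, 14281 and 4704 RPM in the inputs and at 50.5, 205 and 20863 RPM after WGA. The 29-base fragment stood at 2084, 4987 and 1277 RPM in the inputs and at 240.3, 440.5 and 68765 RPM after WGA. In neutrophils it was 53.8-fold higher after WGA (52.2 to 55.6) and passed the 32-base fragment, while in the input it stood far below it. The 22-base fragment stood at 4164, 8625 and 2396 RPM in the inputs and at 187.6, 603 and 1481 RPM after WGA, so that in neutrophils it was 1.62-fold lower (1.57 to 1.66). The 25-base fragment was lower there too, at 444 RPM in the input and 167 after WGA, while those of 28 to 33 bases were higher.

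A second shared end, AGGCCCTGTAAT, was held by 51 sequences. They summed to 5836, 4056 and 3379 RPM in the HOXB8 libraries, to 16189, 3066, 3614 and 3404 RPM in the differentiated libraries, and in neutrophils to 8427 RPM before and 14697 RPM after WGA. Its 18-base member stood at 672, 1740 and 1547 RPM in the HOXB8 libraries, and at 1585, 1116, 1253 and 1264 RPM in the differentiated libraries. In neutrophils it stood at 958 RPM in the input and 791 after WGA. Its 42-base member went from 454 RPM in the input to 0.362 after WGA in HOXB8 cells and from 1722 to 0.469 RPM in differentiated cells, but stood at 737 and 784 RPM in neutrophils. The long member was thus nearly absent after capture from the HOXB8 line and about level in neutrophils.

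The ends of 18S rRNA itself moved in opposite directions in neutrophils. The 101-base sequence from its first base stood at 3.20, 30.6 and 1.99 RPM in the HOXB8 libraries and at 3.94, 188.1, 2.23 and 227 RPM in the differentiated libraries. In neutrophils it stood at 45.01 RPM in the input and 22147 RPM after WGA, 492-fold higher (417 to 585). As 101 bases is the longest length in the table, its 3′ end may be the limit of the read. Whether the RNA was longer was not tested. In differentiated cells biotin was 47.8-fold above input (28.9 to 85.6), while for WGA the ratio to input was 0.565 (0.272 to 1.20), an interval that includes 1. The 16-base sequence from the last base of 18S rRNA stood at 183, 777 and 1579 RPM in the 3 inputs, at 0 in the HOXB8 and differentiated WGA libraries and at 0.101 RPM, 1 read, in the neutrophil WGA library. A count of 0 allows up to 0.543 and 0.351 RPM in the former pair (3 reads each).

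A further pair of 18S-like sequences was high after capture from the HOXB8 line and low elsewhere. The rule for naming sequences takes in the highest ratios to input, so that large ratios here follow in part from the choice. The 33-base sequence that ends in GCCTACCA stood at 9.61, 197 and 304 RPM in the HOXB8 libraries and at 9.98, 480.3, 561 and 478 RPM in the differentiated libraries. In neutrophils it stood at 25.1 RPM in the input and 7.16 after WGA. WGA was 31.6-fold above input in HOXB8 cells (22.7 to 45.2) and 56.2-fold in differentiated cells (40.9 to 79.5), and 3.505-fold below it in neutrophils (2.51 to 4.90). The 28-base sequence that ends in CGATTCCG stood at 2.67, 56.5 and 77.0 RPM in the HOXB8 libraries and at 2.89, 277, 265 and 250.4 RPM in the differentiated libraries. In neutrophils it stood at 1.61 RPM in the input and was not seen after WGA, where 3 reads are worth 0.302 RPM.

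**Figure D4:**
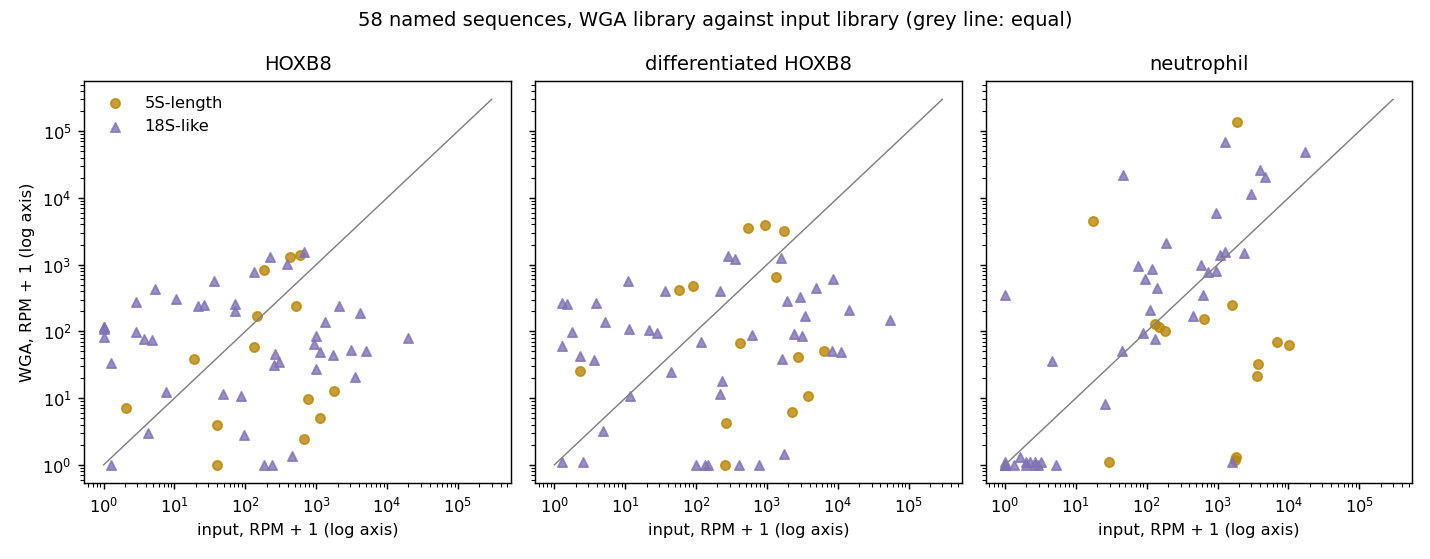
Each point is 1 of 58 named sequences, 14 of them 5S-length and 44 18S-like, with its RPM + 1 in the input (horizontal, log axis) and after WGA (vertical, log axis) for 1 kind of cell. The grey line marks equal levels. In neutrophils the 18S-like 29-base fragment lies far above the line, at 68765 RPM after WGA and 1277 RPM in the input, while in the HOXB8 line the most abundant input fragments lie below the line.

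The 3′ ends had letters in common beyond the fragment. Where another sequence of the table continues past the last 12 bases of a member, the next letters could be read, which held for 2167 of 2785 members. The end TGGGAGACCGCC is followed by TGGGAA, and both AGCTAGGAATAA and AGGCCCTGTAAT are followed by TGGAAT, the letters with which the 3′ adapter of the kit named in the labels begins by general knowledge. Members followed by TGG held 82.8%, 42.9% and 35.9% of member RPM in the HOXB8 libraries. They held 89.1%, 66.6%, 74.2% and 66.0% in the differentiated libraries, and 81.6% and 91.95% in neutrophils before and after WGA. Counted by sequence and not by RPM, 799 of 2785 members (28.7%) and 602 of 7013 sequences on the 45S record (8.58%) were followed by TGG. Of 4575 distinct 12-base stretches inside members, also counted without RPM, 3.43% were followed by TGG (letters as written, forward strand, all members lying on that strand). Of the RPM on the 45S record, ends followed by TGG held between 12.4% and 60.7%. The lowest of these is the neutrophil input, where the next letters were known for 15.97% of that RPM, against 58.0% in the differentiated input and 84.1% or more in the others; for members they were known for 82.4% to 98.5%. The part of adapter trimming in these ends was not tested. The shares of 28.7% and 8.58% count a shared end once for each sequence that has it. The 3.43% counts each distinct stretch once. The first end named here was held by 318 of the 799 members, so these shares cannot be compared directly. Without ends followed by TGG, an alternative added after seeing the data, the log2 WGA to input ratio was 0.91 in HOXB8 cells, -0.87 in differentiated cells and 0.60 in neutrophils, so that the HOXB8 value changed its sign.

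By record, 38 of the 88 held 1% or more of the summed fragments in some library, 9 of them 5S-length and 29 18S-like. The last of these by share, URS00003A36ED, reached 1.10%, and the next record, URS00008CDCE1, 0.835%. URS000002B0D5, which carries the fragment 62 to 95, stood at 2053, 883 and 242 RPM in the HOXB8 libraries, at 6916, 5391, 598 and 4706 RPM in the differentiated libraries and at 13198 RPM before and 137114 RPM after WGA in neutrophils. In the inputs of this record fragments of 30 to 39 bases prevailed (1877, 6720 and 10814 RPM). In every captured library those of 40 or more bases did (852 and 5296 RPM after biotin, 4641 after PNGase F). After WGA these stood at 189 RPM in HOXB8 cells, 498 in differentiated cells and 137052 in neutrophils.

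Other 5S-length records ran against this. URS00000F9D45, which carries the 18-base and 24-base fragments, stood at 1378, 2138 and 3199 RPM in the HOXB8 libraries, at 4299, 5789, 9209 and 5653 RPM in the differentiated libraries and at 3872 and 2750 RPM in neutrophils, so that WGA was above input in the HOXB8 line and below it in neutrophils. URS0001BC4EB9 had the same directions of WGA against input, with 987, 1153 and 1626 RPM, then 2975, 2787, 4278 and 2923 RPM, then 4218 and 1852 RPM. Unlike those of URS00000F9D45, its differentiated biotin and PNGase F levels lay below input. URS00019BBBEE fell short of its input after WGA in each kind, with 1644 against 191 RPM in HOXB8 cells, 5443 against 178 RPM in differentiated cells and 8877 against 3107 RPM in neutrophils. URS00002CA434 (1765 and 624, 5323 and 1562, 7691 and 2103 RPM) and URS0001BCA572 (1082 and 253, 3850 and 532, 4876 and 1470 RPM) were lower after WGA in each as well.

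Among 18S-like records, URS00023119FF, which carries the 32-base fragment, stood at 20015, 633 and 923 RPM in the HOXB8 libraries and at 54361, 544, 697 and 655 RPM in the differentiated libraries. In neutrophils it stood at 17164 RPM in the input and 48820 after WGA. URS00008CA63F, which carries the 29-base fragment, stood at 3827, 910 and 1077 RPM, then 8825, 1489, 1175 and 1521 RPM, then 3151 and 71508 RPM. URS00008C7565, which carries the 101-base and 18-base sequences, stood at 1888, 2334 and 2359 RPM, then 4061, 1729, 1764 and 1913 RPM, then 2014 and 24494 RPM. After the 10 18S-like records of highest share, the other 19 spanned 219 to 2073 RPM in the HOXB8 input, 457 to 1659 RPM in its WGA library, 72.3 to 2289 RPM in the neutrophil input and 51.2 to 3104 RPM after WGA in neutrophils.

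**Figure D5:**
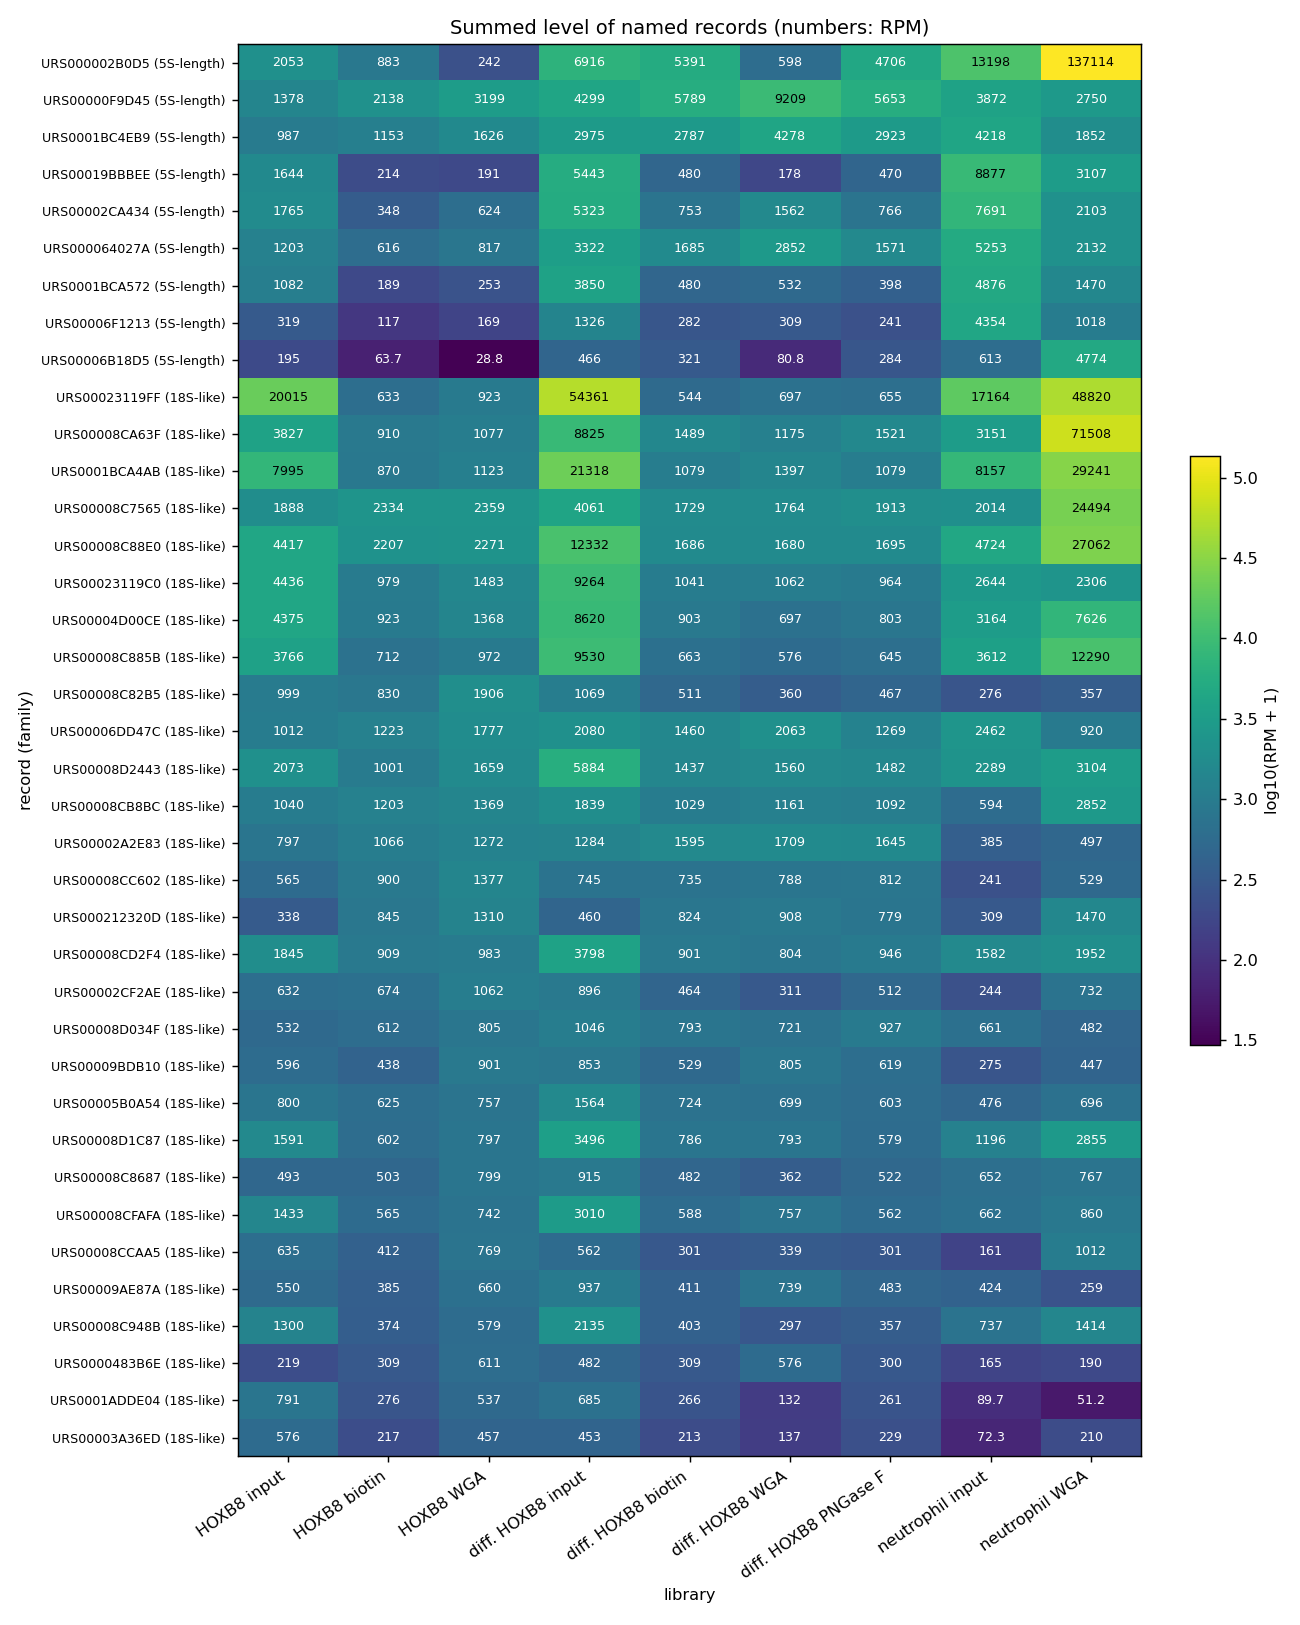
The heat map gives the summed level of the 38 named records (rows, 9 5S-length above 29 18S-like) in the 9 libraries (columns), coloured by log10(RPM + 1) with RPM printed in each cell. The neutrophil WGA column holds the highest cells, 137114 RPM for URS000002B0D5 and 71508 RPM for URS00008CA63F.

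Of 84 records at 10 RPM or more in an input or WGA library, 21 stood below their input after WGA in each of 3 kinds of cell, 10 were higher in all 3 and 53 were mixed. Of the 5S-length records 17 were lower, 2 higher and 19 mixed, and of the 18S-like records 3, 8 and 28. By the exact sign-flip permutation test the lowest p was 0.25 and the lowest adjusted p 0.677, so that 0 records were called, and at this number of kinds no record could be. Among those higher in all 3 kinds, URS000212320D had 338 RPM before and 1310 RPM after WGA in HOXB8 cells, 460.4 and 908 RPM in differentiated cells and 309 and 1470 RPM in neutrophils. Its members lay at record positions 50 to 5850, while no other 18S-like record had members past position 1899. Counting it as 18S-like is thus uncertain. URS00002A2E83 stood at 797 and 1272 RPM, 1284 and 1709 RPM, and 385 and 497 RPM.

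For single sequences limma tested 13093 sequences of the whole table over the 3 kinds of cell. It called 333 lower after WGA (2.54%) and 3 higher (0.0229%) at an adjusted p under 0.05. Of 2022 members tested, 41 were called lower and 0 higher. That share is near the background of the table, so the count is no result about these members as a set. By family, 27 of 507 5S-length members (5.33%) and 14 of 1506 18S-like members (0.930%) were called, against 295 of 11071 other sequences (2.66%). Unadjusted, 271 of 2022 members passed a limma p under 0.05, against 1732 of all 13093 sequences tested, a like share. edgeR on recovered reads called 1 member among 22 sequences. Of the 27 5S-length ones, 17 end at positions 118 to 121 and 9 end in TGGGAGACCGCC. Of the 14 18S-like ones, 3 end at the last base of 18S rRNA. The median log2 change over the members tested was 0.67 and over all sequences tested 0.95.

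The called 5S fragments that end in TGGGAGACCGCC had 29 to 50 bases and summed to 4883, 17115 and 27401 RPM in the HOXB8, differentiated and neutrophil inputs, against 50.2, 156 and 256 RPM after WGA. The called fragments at the 3′ end of 5S rRNA summed to 423, 2108 and 9918 RPM in the inputs and to 32.1, 38.4 and 0.705 RPM after WGA. The largest change was that of the 16-base sequence from the last base of 18S rRNA (log2 change -9.20, SE 1.47, limma adjusted p = 2.73e-07), lower in all 3 kinds. The fragment 62 to 95 had a log2 change of -7.17 (SE 1.46, limma adjusted p = 0.000175). Of the 41, 40 were lower in all 3 kinds, the exception being the 42-base fragment that ends in AGGCCCTGTAAT (log2 change -6.16, limma adjusted p = 0.00215), which was about level in neutrophils. Without HOXB8 cells 12 of 1540 members were called, against 1.30% of all sequences tested. Without differentiated HOXB8 cells 0 of 1727 were called, against 0.0472%. Without neutrophils 355 of 1582 were called, 99 of them higher, against 20.3% of all sequences tested, so that this count too is no result about members as a set.

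By a 2-fold difference of RPM + 1 between 1 library and its input, among sequences at 10 RPM or more in either, members were spread to both sides. In HOXB8 cells 642 of 1136 members were higher after WGA (56.5%, against 64.4% of the table) and 383 lower (33.7%, against 28.2%). In differentiated cells 403 of 1095 were higher (36.8%, against 53.3%) and 611 lower (55.8%, against 40.7%). In neutrophils 514 of 859 were higher (59.8%, against 44.5%) and 200 lower (23.3%, against 45.3%). The higher members in neutrophils were 260 of 427 5S-length (60.9%) and 252 of 428 18S-like (58.9%) sequences. With 1 library a group these counts have no replicate check. Near-identical copies are each counted and move together, so that these shares do not count independent fragments.

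After biotin capture the summed fragments were 2.71-fold below input in HOXB8 cells (2.69 to 2.72) and 4.65-fold below in differentiated cells (4.63 to 4.67). By the same 2-fold rule 442 of 949 members were higher in HOXB8 cells (46.6%, against 54.1% of the table) and 409 lower (43.1%, against 37.9%). In differentiated cells 410 of 1110 were higher (36.9%, against 49.3%) and 606 lower (54.6%, against 42.9%). WGA and biotin shared the input of their kind of cell, so that their ratios to it are not independent.

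PNGase F after biotin left these fragments close to the biotin library. Their sum was 42452 against 43263 RPM, a ratio of 0.981 (0.976 to 0.986). Of 46 members at a mean of 100 RPM or more, 45 lay within 2-fold, 15 of 15 5S-length and 30 of 31 18S-like, against 330 of 350 sequences of the table (94.3%). Over all members at 10 RPM or more, 141 of 760 were 2-fold higher (18.6%, against 20.6% of the table) and 150 lower (19.7%, against 24.8%). The 16-base sequence that ends in TCTCGGCG stood at 106 RPM after biotin and 38.3 after PNGase F, and the 20-base sequence that ends in CATGGCCG at 224 and 64.0 RPM. These were the 2 members at 100 RPM or more in either library that were 2-fold lower, and 0 were 2-fold higher.

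Between inputs, the summed fragments were 2.44-fold higher in differentiated than in undifferentiated HOXB8 cells (2.43 to 2.45), and 1.73-fold lower in neutrophils than in differentiated HOXB8 cells (1.73 to 1.74). The families differed in the second step. 5S-length fragments were 1.53-fold higher in neutrophils (1.52 to 1.54) and 18S-like fragments 2.75-fold lower (2.73 to 2.76). By the 2-fold rule 401 of 778 members were higher in the differentiated input (51.5%, against 34.2% of the table) and 57 lower (7.33%, against 23.4%), with 150 of 166 5S-length members higher. From differentiated cells to neutrophils 130 of 785 were higher (16.6%, against 21.7%) and 487 lower (62.0%, against 57.8%). As the table held 39.3% of the HOXB8 input's reads and 70.2% of the differentiated input's, the first ratio depends on the scale: as a share of the table its log2 value was 0.45 in place of 1.29.

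The 11 sequences of the 7 records in neither family summed to between 10.1 and 91.8 RPM per library. The highest, 18 bases at positions 985 to 1002 of URS00009A4A28, stood at 38.7, 75.3 and 35.04 RPM in the HOXB8, differentiated and neutrophil inputs, at 42.9 RPM after WGA in neutrophils and at 0 in the other captured libraries. A sequence of 18 bases on URS000042372F was seen at 49.1 RPM in the HOXB8 WGA library and in 1 other library, at 0.263 RPM. Whether these records are of mitochondrial rRNA was not tested.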

How the data were processed

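Small RNA of 9 mouse libraries, 1 per group, was analysed. 4 poly(A) libraries were not used here. The authors deposited RPM values, reads of each unique sequence per 1000000 reads of the library; mm10 is named per the submitters' processing notes, while aligner, trimming and the filter behind the table are not given in the sources used here. Per the labels' protocols, libraries followed the Illumina TruSeq small RNA kit. Of the deposited RPM values 100% gave whole reads within 0.1; edgeR 4.0.16 on them called 22 sequences, 1 of them a member.

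Sums were compared by exact sign-flip permutation over 3 kinds of cell. Single sequences were tested with limma 3.58.1 with a trended variance on log2(RPM + 1), the kind of cell being a block, at 10 RPM or more in 1 of 6 libraries, with Benjamini-Hochberg adjustment over the whole table. Named were records at 1% or more of the sum in any library, the 3 highest sequences of each library, the 3 with the highest and lowest ratio of each comparison at 100 RPM or more, and those called by limma; values of named records not in the text stand in the heat map. One 5S sequence is not reported here. Members and lists were chosen with earlier results of these data known. Alternatives were other scales, length limits, pseudocounts and filters, and leaving out top sequences or a kind of cell.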

Additional observations from a re-analysis of the deposited data

Results flagged for a closer look

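The WGA to input ratio had one sign in both states of the HOXB8 line and the other in neutrophils, for each of 4 sums. These differences between kinds of cell were not tested, since each kind has 1 library of each sort. For all rRNA fragments outside the 45S record the log2 ratio in neutrophils exceeded that in HOXB8 cells by 2.79 and that in differentiated cells by 3.92. For 5S-length fragments the differences were 2.14 and 2.35, and for 18S-like fragments 3.10 and 4.70. For 18S-like fragments that end in AGCTAGGAATAA they were 6.80 and 6.95.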

How the results depend on the processing

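Log2 ratios of sums are given in the order HOXB8, differentiated HOXB8, neutrophil. For WGA to input of all members they were -0.99, -2.12 and 1.80. As a share of the table they were -2.19, -2.58 and 1.77, and of the rRNA class -2.16, -2.33 and 1.70. At 20 or more bases they were -1.75, -2.51 and 2.02, and counted by distinct sequences -0.26, -0.34 and 0.43. Leaving out the 10 highest sequences per library gave -0.37, -1.40 and -0.50, and leaving out the highest of each record 0.10, -1.08 and -0.20. Another pair of alternatives was added after seeing the data. Under 40 bases the ratios were -0.98, -2.12 and 1.02, and without 3′ ends followed by TGG 0.91, -0.87 and 0.60, with a mean of 0.21. With 1 kind of cell left out the mean ran from -1.55 to 0.41. Why the signs changed was not tested.

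For 5S-length fragments the neutrophil value turned to -1.33 without the 10 highest, -1.07 without the highest of each record, -4.28 under 40 bases and -1.65 without TGG ends. The differentiated value was 0.048 by distinct sequences, and leaving out a kind gave means from -0.75 to 0.42, of which 0.32 and 0.42 were above 0. For 18S-like fragments the neutrophil value was -0.0028 without the 10 highest, and the HOXB8 value 0.27 without the highest of each record. Without TGG ends the HOXB8 value was 1.09 and the mean 0.97, and leaving out a kind gave means from -1.86 to 0.49.

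Of records, 31 went one way in all kinds, 16 did so by distinct sequences and 41 to 53 with a kind left out. Members called by limma numbered 41, with 12 at a pseudocount of 10, 91 as shares of the table, 73 without trend and between 0 and 355 with a kind left out. In the same order, the shares called over all sequences tested were 2.57%, 0.871%, 5.15%, 4.26% and between 0.0472% and 20.3%. edgeR called 1 member, and 0.168% of all sequences tested.

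Biotin to input was -2.66 in HOXB8 and -2.63 in differentiated cells as a share of the table, -2.06 and -2.51 at 20 or more bases, -0.31 and -1.26 without the highest of each record, and -1.48 and -2.46 under 40 bases. PNGase F to biotin was -0.055 at 20 or more bases, 0.015 without the highest of each record and 0.011 under 40 bases. At a pseudocount of 10 its 2-fold counts were 91 higher and 99 lower, of 760 members. Between inputs, differentiated to HOXB8 and neutrophil to differentiated HOXB8, the log2 values were 0.45 and -1.13 as a share of the table, 1.42 and -0.81 at 20 or more bases, 1.12 and -0.28 without the highest of each record, and 1.27 and -0.85 under 40 bases. For the former, a pseudocount of 10 gave 243 of 778 members higher and 15 lower. Shares of the whole table are not given at this pseudocount, so these counts are no result about members as a set.

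No paired analysis was possible because, by replicate number, the labels pair no small RNA libraries, each group having 1; the tests over 3 kinds of cell compare WGA with the input of the same kind. The 9 libraries differ in depth, and a level of 3 reads lies between 0.302 and 0.965 RPM.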
